A study of Homo sapiens with 3 samples.

Results

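The RNA interference machinery was described here through 10 genes taken by symbol from the deposited gene table: AGO1, AGO2, AGO3, AGO4, DICER1, DROSHA, DGCR8, TARBP2, XPO5 and TSNAX. All 10 were present among the 58302 genes of the table, and all 10 were among the 17263 genes left by the filter on low counts. The cells were HCT116, an established human colorectal cancer line, in 3 libraries of total RNA. One library came from cells given a control small interfering RNA (siRNA), and the others came from cells given siRNA 1 or siRNA 2, each of a different sequence against DUOX2, an NADPH oxidase. The labels give no dose, time or culture for any library. Each p-value sets the difference from the control against the spread between the siRNA 1 and siRNA 2 libraries, moderated by the spread over all genes. The spread between these libraries may be technical or due to their sequences. Every group, the control included, had been given an siRNA, and no untreated cells were analysed here.

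The microRNA pathway begins in the nucleus. There the Microprocessor, made of the nuclease DROSHA and the RNA-binding protein DGCR8, cuts hairpins out of primary microRNA transcripts. Exportin-5 (XPO5) carries the hairpins to the cytoplasm, and DICER1, with its partner TARBP2, trims them to short duplexes. An Argonaute protein (AGO1 to AGO4) keeps 1 strand as the guide and pairs with target RNAs, and AGO2 is the family member best known for cutting them. TSNAX (TRAX) forms with translin (TSN) the nuclease C3PO, known for removing fragments of the discarded strand. Synthetic siRNAs enter at the loading step, so the same Argonautes carry both microRNAs and the siRNAs that were transfected.

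The siRNAs are shown because such duplexes are loaded into the Argonautes described here. Their loading was not measured. In the antisense strand, which is complementary to the target and is the intended guide, the capitals mark the seed (bases 2 to 8 from the 5′ end). The sense strand is in lower case throughout.
control siRNA, sense: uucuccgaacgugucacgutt
control siRNA, antisense: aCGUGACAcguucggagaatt
siRNA 1, sense: ggaggacaacauagugguutt
siRNA 1, antisense: aACCACUAuguuguccucctt
siRNA 2, sense: ccaugaugcgauccuucautt
siRNA 2, antisense: aUGAAGGAucgcaucauggtt
The 3 seeds differed from one another. Among GENCODE 29 transcripts, the 19-base sense sequence of siRNA 1 and that of siRNA 2 each matched DUOX2 and no other gene, and the control sequence matched none.

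None of the 10 genes carried a full match to any siRNA strand. The nearest 19-base stretch in any transcript of a member had between 5 and 8 mismatches to the strand it would pair with, and for AGO2 it had 6 with either strand of siRNA 1 and of siRNA 2. Seed matches were looked for on the sense strand of the 3′ untranslated region of the longest protein-coding transcript. The letters TAGTGGT, which match the seed of siRNA 1, were found in 7.29% of 19093 such regions. TCCTTCA (match to the siRNA 2 seed) was found in 14.8% and TGTCACG (control) in 2.66%. Per kilobase of all these regions there were 0.0473 matches for siRNA 1, 0.106 for siRNA 2 and 0.0159 for the control. AGO3, with 16755 bases the longest of these regions among the members, held TAGTGGT and TGTCACG once each (0.0597 per kilobase for each). AGO1 held TCCTTCA at 2 places in 10921 bases (0.183 per kilobase), and AGO2 held it once in 11888 bases (0.0841 per kilobase). The AGO2 region held no TAGTGGT, and the other 7 members held none of the 3 motifs. Such matches describe the letters in these windows only. Seed matches of the sense strands, shorter seed matches and seed matches in coding sequence were not searched for. Whether any siRNA acted on AGO2 or another member was not tested. The matches in AGO3 and AGO1 are shown with the 7 matching letters in capitals.
AGO3, siRNA 1 seed match: ccaaatgatttTAGTGGTgctatggcagc
AGO3, control seed match: ctgagccaaacTGTCACGaaatgttctgt
AGO1, siRNA 2 seed match, first: gacagaagtacTCCTTCAaagcagctgtg
AGO1, siRNA 2 seed match, other: ctttggcagaaTCCTTCAaacctctttgt

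The libraries held 17589502 counts (control), 19130768 (siRNA 1) and 18832672 (siRNA 2). DUOX2 itself had 2, 2 and 0 counts, at or under the level of 3 counts (0.157 to 0.171 CPM, the count scaled by the library total), so the target gives no check of the labels. Mitochondrially encoded genes took 8.58%, 12.1% and 8.83% of counts. Of 11 colorectal epithelial markers, 8 passed the filter, and the sum over the 11 was 5370, 3300 and 4890 CPM. KRT8 and KRT18 had the most counts of them in every library. CDX1 was at 0, LGR5 had 3, 2 and 0 counts, and KRT20 had 2, 0 and 4. The library protocol in the labels speaks of retinas, but 9 of 13 retinal markers, CRX among them, were at 0 everywhere, and the sum over the 13 was 1.12 to 1.59 CPM. Of the 13, 2 passed the filter. The 6 fibroblast markers summed to 2.30 to 3.75 CPM, and 1 of them passed the filter. The 5 leukocyte markers summed to 2.40 to 4.09 CPM, and 3 of them passed it. CD68 had 56, 17 and 32 counts in the control, siRNA 1 and siRNA 2 libraries. CD3E had 9, 13 and 9, LYZ had 4, 16 and 7, CD79A had 3, 0 and 0, and PTPRC was at 0.

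Both siRNA libraries were first set against the control. No member of the RNA interference machinery passed edgeR's quasi-likelihood test over all genes (0 of 10 at an adjusted p under 0.05), against a background of 0.0579% of all genes tested. TSNAX and DICER1 had an unadjusted edgeR p under 0.05, as did 26% of all genes tested (11.5% with a higher value). At an adjusted edgeR p under 0.10 the count was still 0, against 0.365% of genes. With DESeq2 1 member passed, TSNAX, against 3.28% of genes in either direction and 1.52% that were higher. These shares are over all 17263 genes, including some that DESeq2 left without an adjusted p. With limma on FPKM 0 of 10 passed. By size after TMM scaling, TSNAX was at least 2-fold higher with both siRNAs, against 4.0% of all genes (9.05% in either direction), but under total-count scaling 0 members were, since its CPM ratio for siRNA 1 was 1.93. At 1.5-fold after TMM scaling, TSNAX and DICER1 were higher with both, against 11% of genes, while the CPM ratio of DICER1 for siRNA 1 was 1.43. AGO2 was more than 2-fold lower with siRNA 1, as were 12.4% of genes, and not with siRNA 2. The other 8 members stayed within 1.57-fold of the control in CPM. The edgeR fit used 1 residual degree of freedom, beside a prior of 4.66 degrees of freedom drawn from all genes. Both siRNA libraries were set against the same single control.

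**Figure D1:**
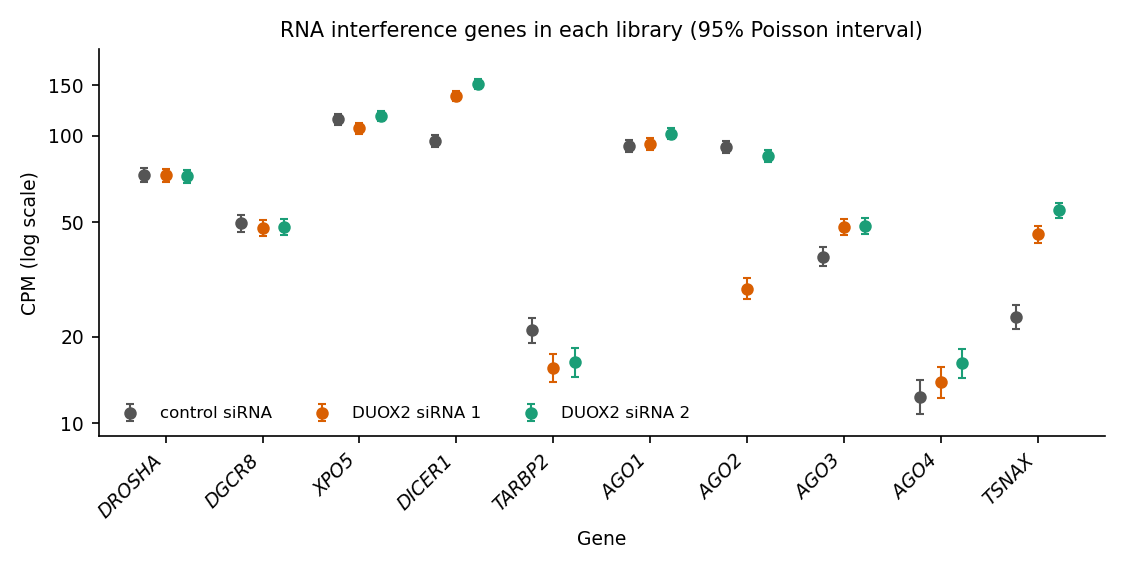
Level of each of the 10 genes in the 3 libraries, as CPM on a log axis, with 95% Poisson intervals that cover counting error only. AGO2 stands apart with siRNA 1 (29.4 CPM against 91.7 in the control and 85.2 with siRNA 2), and TSNAX is lowest in the control (23.5 CPM against 45.4 and 55.1).

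The Microprocessor genes differed little among the libraries. DROSHA (ENSG00000113360, chromosome 5, 31400497 to 31532196, GRCh38), the nuclease, had 1282, 1393 and 1363 counts in the control, siRNA 1 and siRNA 2 libraries, which is 72.9, 72.8 and 72.4 CPM. The ratio of siRNA 1 to control was 0.999 (95% counting interval 0.925 to 1.08) and that of siRNA 2 to control 0.993 (0.919 to 1.07). All 3 values lay within each other's counting intervals. Its edgeR log2 fold change was 0.10 ± 0.21 (SE, adjusted p = 0.788) and turned to -0.01 when libraries were scaled by total count, to -0.01 in limma and to -0.10 with the GC trend removed.

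DGCR8 (ENSG00000128191, chromosome 22, 20080232 to 20111877), which recognises the hairpin, had 874, 915 and 906 counts in the control, siRNA 1 and siRNA 2 libraries, or 49.7, 47.8 and 48.1 CPM. Its edgeR log2 fold change was 0.05 ± 0.22 (SE, adjusted p = 0.898), and it turned to -0.05 both under total-count scaling and in limma. The ratio of DROSHA to DGCR8, per kilobase of exons, was 1.38 in the control, 1.43 under siRNA 1 and 1.41 under siRNA 2. The Microprocessor pair therefore kept nearly the same proportion in all 3 libraries before any correction for GC content. With the GC trend removed, the edgeR log2 fold change of DGCR8 was 0.32 ± 0.18 (SE, adjusted p = 0.618). That of DROSHA was then -0.10, so the near-constant proportion holds for the uncorrected values only.

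DGCR8 messenger RNA itself carries 2 annotated hairpins in its exons, MIR3618 and MIR1306, of the kind that the Microprocessor cuts. Their mature sequences are shown with the seed in capitals, from RefSeq (GRCh38.p14). They lie on the forward strand of chromosome 22, from 20085797 to 20085818, from 20086072 to 20086093 and from 20086112 to 20086129.
hsa-miR-3618: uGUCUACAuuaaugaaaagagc
hsa-miR-1306-5p: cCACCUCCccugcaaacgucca
hsa-miR-1306-3p: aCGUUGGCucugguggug
The 3 seeds differ from one another and from those of the siRNAs. The gene rows for MIR3618 and MIR1306 held 1 count each in every library, so at this depth the libraries carry no information on these hairpins.

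XPO5 (ENSG00000124571, chromosome 6, 43522330 to 43576075), the exporter of hairpin precursors, was the most abundant member per kilobase in every library. It had 2012, 2031 and 2209 counts in the control, siRNA 1 and siRNA 2 libraries, or 114, 106 and 117 CPM. The control lay between the siRNA libraries. Its edgeR log2 fold change was 0.06 ± 0.19 (SE, adjusted p = 0.848) and turned to -0.03 under total-count scaling and to -0.04 in limma. XPO5 shares 348 exonic bases with POLR1C on the other strand (4.08% of its exons), and the treatment of strand in counting is not given in the sources used here.

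DICER1 (ENSG00000100697, chromosome 14, 95086228 to 95158010), which cuts precursors to duplexes, was higher in both siRNA libraries than in the control. It had 1692 counts (96.2 CPM) in the control, 2626 (137 CPM) under siRNA 1 and 2853 (152 CPM) under siRNA 2. The siRNA libraries were 1.43-fold (95% counting interval 1.34 to 1.52) and 1.57-fold (1.48 to 1.67) above the control in CPM, and their own ratio was 1.10. The edgeR log2 fold change was 0.68 ± 0.20 (SE, adjusted p = 0.133). With the trend on GC content removed it was 0.23 ± 0.16 (SE, edgeR adjusted p = 0.690).

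TARBP2 (ENSG00000139546, chromosome 12, 53500921 to 53506431), the RNA-binding partner of DICER1 in the loading complex, went the other way before any correction for GC content. It had 370, 298 and 307 counts in the control, siRNA 1 and siRNA 2 libraries, or 21.04, 15.6 and 16.3 CPM, so that both siRNA libraries were below the control. The edgeR log2 fold change was -0.30 ± 0.23 (SE, adjusted p = 0.430), and it turned to 0.44 ± 0.21 with the GC trend removed (edgeR adjusted p = 0.567). Per kilobase of exons the ratio of DICER1 to TARBP2 was 1.52 in the control, 2.93 under siRNA 1 and 3.09 under siRNA 2. With the GC trend removed, the log2 fold changes under siRNA 1 and siRNA 2 were 0.14 and 0.32 for DICER1. For TARBP2 they were 0.55 and 0.33, so the higher ratio under the siRNAs holds for the uncorrected values only. TARBP2 has the highest GC content of the 10 members (60.8%), and DICER1 is among the lowest (39.2%).

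Among the Argonautes, AGO2 differed between the siRNA libraries by 1.45 on the log2 scale (siRNA 2 minus siRNA 1). For AGO1, AGO3 and AGO4 this difference was 0.04, -0.07 and 0.13. AGO2 (ENSG00000123908, chromosome 8, 140520156 to 140635619), the slicing Argonaute, had 1612, 562 and 1604 counts in the control, siRNA 1 and siRNA 2 libraries. The control and siRNA 2 values were close to each other, and the siRNA 1 value lay far below both. In CPM the siRNA 1 library was at 0.321 of the control (95% counting interval 0.291 to 0.353), and the siRNA 2 library was at 0.929 of it (0.867 to 0.997). Between the siRNA libraries AGO2 was 2.90-fold higher with siRNA 2 (2.63 to 3.20). A difference of at least 2-fold between the siRNA libraries, after scaling, was found in 6.56% of all genes tested and in 1 of 10 members.

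Because the siRNA libraries disagreed, the group comparison for AGO2 had the widest error of the members. Its edgeR log2 fold change was -0.60 ± 0.55 (SE, adjusted p = 0.503), with -1.50 for siRNA 1 and -0.05 for siRNA 2. With the GC trend removed these were -1.67 and -0.18. The siRNA 1 library also had the highest mitochondrial share (12.1% against 8.58% and 8.83%), and its part in the AGO2 value was not tested. With 1 library per siRNA, a difference between siRNA sequences and a difference between cultures or preparations cannot be told apart.

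AGO1 (ENSG00000092847), AGO3 (ENSG00000126070) and AGO4 (ENSG00000134698) lie side by side on the forward strand of chromosome 1. AGO4 spans 35808172 to 35857890, AGO1 35869808 to 35930528 and AGO3 35930718 to 36072500, with 11917 bases between AGO4 and AGO1 and 189 bases between AGO1 and AGO3. AGO1 had 1617, 1788 and 1914 counts in the control, siRNA 1 and siRNA 2 libraries (91.9, 93.5 and 102 CPM). AGO3 had 668, 920 and 914 (38.0, 48.1 and 48.5 CPM), and AGO4 had 217, 266 and 304 (12.3, 13.9 and 16.1 CPM). In all 3 genes both siRNA libraries were above the control in CPM, but for AGO1 with siRNA 1 the counting interval of the ratio (0.95 to 1.09) included 1, as did that for AGO4 with siRNA 1 (0.939 to 1.35). The edgeR log2 fold changes were 0.18 ± 0.20, 0.45 ± 0.22 and 0.38 ± 0.26 (SE) for AGO1, AGO3 and AGO4, with adjusted p of 0.565, 0.257 and 0.369. That of AGO3, whose transcript is 38.9% GC, turned to -0.02 with the GC trend removed.

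**Figure D2:**
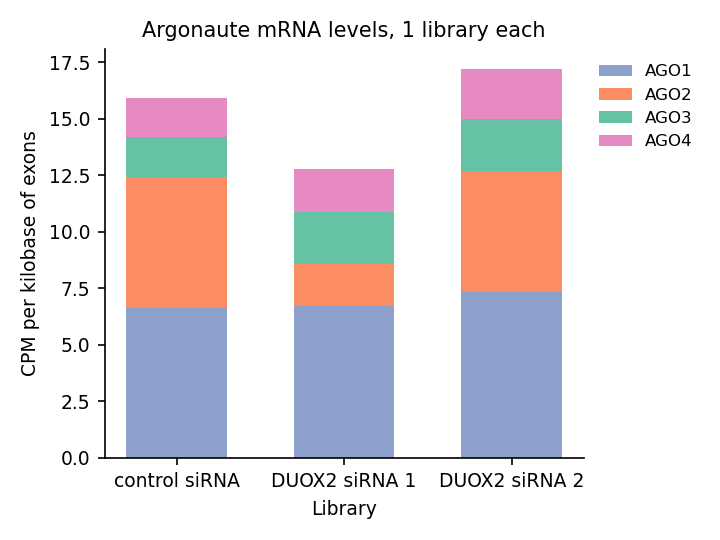
Level of the 4 Argonaute genes in each library, stacked, in CPM per kilobase of merged exons, with 1 library per bar and no error. The AGO2 segment makes 36.4% of the bar in the control, 14.5% under siRNA 1 and 31.2% under siRNA 2.

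As a share of the 4 Argonautes per kilobase of exons, AGO2 made 36.4% in the control, 14.5% under siRNA 1 and 31.2% under siRNA 2. AGO1 made 41.6%, 52.7% and 42.5%. The sum over the 4 genes was 15.9 CPM per kilobase in the control, 12.8 under siRNA 1 and 17.2 under siRNA 2. With the authors' FPKM, whose lengths differ, the AGO2 shares were 37.0%, 14.8% and 31.8%, so the same library stood apart on either scale. In these bulk samples fewer cells expressing a gene and less RNA per cell cannot be told apart.

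TSNAX (ENSG00000116918, chromosome 1, 231528653 to 231566524), the translin partner in C3PO, was the member farthest above the control. It had 413 counts (23.5 CPM) in the control, 868 (45.4 CPM) under siRNA 1 and 1038 (55.1 CPM) under siRNA 2. Both siRNA libraries were above the control, at 1.93-fold (95% counting interval 1.72 to 2.18) and 2.35-fold (2.09 to 2.64) in CPM. The edgeR log2 fold change was 1.19 ± 0.24 (SE, adjusted p = 0.113), and DESeq2 gave an adjusted p of 0.0174. Over all the fits the adjusted p of TSNAX ranged from 0.0174 to 0.504.

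TSNAX shares 653 exonic bases (10.5% of its exons) with TSNAX-DISC1, a read-through transcript into the next gene on the same strand, so the division of reads between them is uncertain. TSNAX-DISC1 had 0, 11 and 34 counts in the control, siRNA 1 and siRNA 2 libraries. The sum of both genes was 413, 879 and 1072 counts, with an edgeR log2 fold change of 1.23 ± 0.25 (SE, adjusted p = 0.113). Adding the read-through thus moved the TSNAX fold change from 1.19 to 1.23. Translin (TSN), the partner of TSNAX in C3PO, had 685, 685 and 1019 counts, and its edgeR log2 fold change was 0.30 ± 0.29 (SE, adjusted p = 0.530). The ratio of TSNAX to TSN per kilobase was 0.426 in the control, 0.895 under siRNA 1 and 0.719 under siRNA 2.

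**Figure D3:**
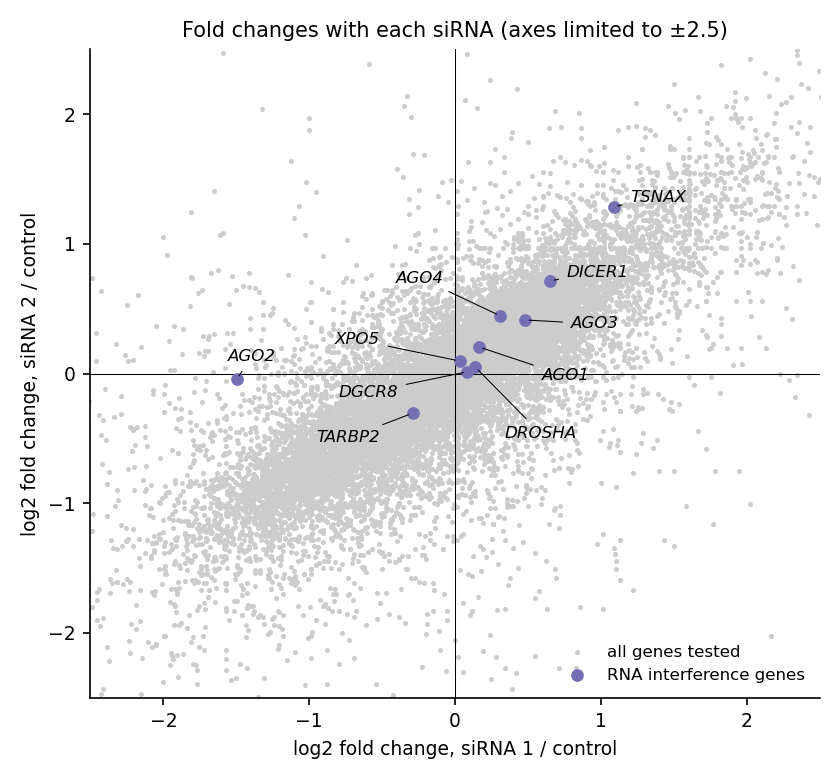
Log2 fold change against the control with siRNA 1 (horizontal) and siRNA 2 (vertical) for all 17263 genes tested (grey) and the 10 RNA interference genes (purple), on axes limited to 2.5 either way. TSNAX lies at 1.09 and 1.29, DICER1 at 0.65 and 0.71, and AGO2 at -1.50 and -0.05, away from the diagonal. The horizontal and vertical values share the control library.

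The 10 members had a median log2 fold change of 0.15 under each siRNA, against 0.02 and -0.01 over all genes tested. Scaling by total count shifted the median of all genes to -0.12 and -0.07, and the median of the members became 0.01 and 0.09. Relative to all genes the members therefore stayed slightly above the middle under either scaling. With the GC trend removed their medians were 0.012 (siRNA 1) and 0.146 (siRNA 2), against 0.008 and 0.009 over all genes. The siRNA 1 median was then close to that of all genes. After TMM scaling 8 members were higher with both siRNAs and 2 lower, against 41.9% and 41.6% of all genes, and under total-count scaling 5 were higher and 4 lower, against 36.3% and 46.7%.

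The fold changes of all genes followed GC content, and the members spread over its range. Among genes under 40% GC, which include TSNAX (35.1%), AGO3 and DICER1, medians of 0.58 (siRNA 1) and 0.45 (siRNA 2) on the log2 scale were found. The values of TSNAX, 1.09 and 1.29, were above these medians, those of DICER1, 0.65 and 0.71, were close to the first and above the second, and those of AGO3, 0.48 and 0.41, were near or below them. Among genes of at least 60% GC, which include TARBP2, the medians were -1.01 and -0.76, so the values of TARBP2, -0.29 and -0.31, lay above them. AGO2 (46.6%) was in the class from 45% to 50% with AGO1, DROSHA and XPO5, where the medians were 0.13 and 0.11. With the trend removed, TSNAX stood at 0.42 with siRNA 1 and 0.78 with siRNA 2 (edgeR log2 fold change 0.62 ± 0.23 SE, adjusted p = 0.504), and 0 members were 2-fold from the control with both siRNAs, against 4.75% of genes.

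**Figure D4:**
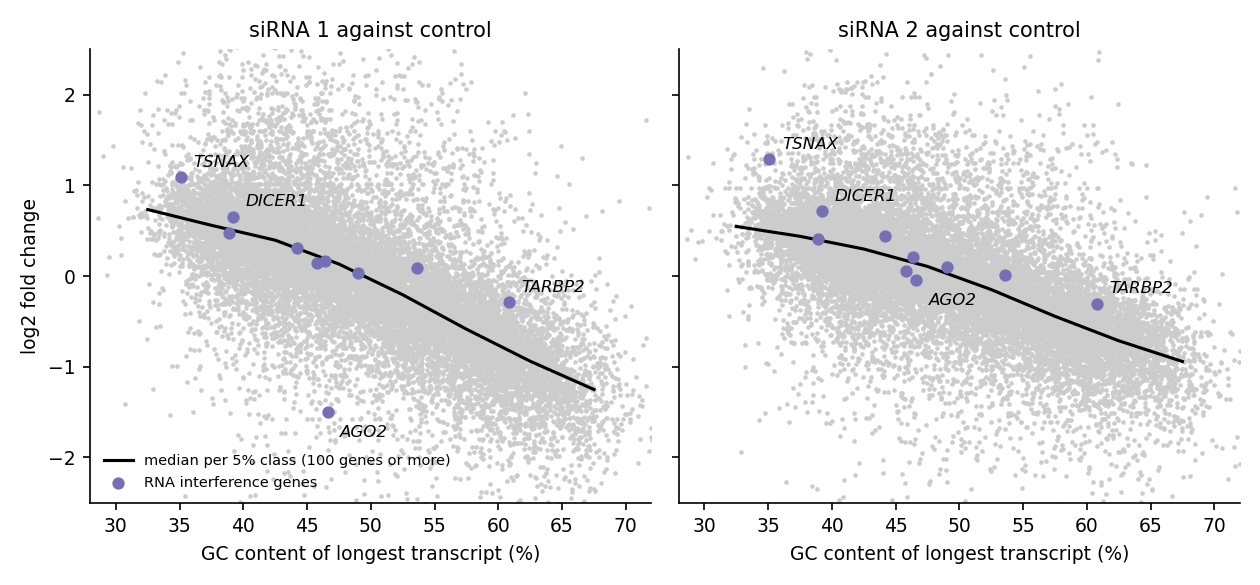
Log2 fold change against the GC content of the longest transcript, for siRNA 1 (left) and siRNA 2 (right), with all genes tested in grey, the median per class of 5% as a line and the 10 RNA interference genes in purple. AGO2 lies far below the line with siRNA 1 (-1.50) and near it with siRNA 2 (-0.05), and TSNAX lies above the line in both panels.

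To compare levels between members, counts were divided by the length of merged GENCODE 29 exons, since the lengths inside the deposited FPKM were not those of a transcript. For all 10 members, and for 92.4% of 15254 genes with at least 50 counts, the FPKM length equalled the sum of all distinct annotated exons within 0.5 bases, so that bases in several versions of an exon were counted each time. For TARBP2 that length was 12328 bases, against 4090 merged exonic bases and a whole gene of 5511 bases. Over the members the FPKM length was 1.08 to 3.01 times the merged length, so genes with many annotated exon versions had understated FPKM.

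In the control the order per kilobase was XPO5 (13.4 CPM per kilobase), DROSHA (9.37), DICER1 (7.82), DGCR8 (6.79), AGO1 (6.62), AGO2 (5.79), TARBP2 (5.14), TSNAX (3.76), AGO3 (1.80) and AGO4 (1.70). Neighbours whose 95% counting intervals overlapped were DGCR8 and AGO1, AGO2 and TARBP2, and AGO3 and AGO4. XPO5 led the order, and the Argonautes AGO3 and AGO4 closed it. With siRNA 1 AGO2 was the lowest of the 10, at 1.86, with an interval that overlapped that of AGO4 (1.91). TSNAX ranked 8 in the control and 4 in both siRNA libraries, at 7.27 and 8.83. In the deposited FPKM the control order was XPO5, AGO1, DROSHA, AGO2, DICER1, TSNAX, DGCR8, TARBP2, AGO4 and AGO3, which places 9 of the 10 genes differently.

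The wider pathway was read from 72 genes in 8 lists, of which 69 passed the filter on low counts. None of them passed edgeR's test over all genes, against 0.0579% of all genes. An unadjusted edgeR p under 0.05 was found for 21 (30.4%), against 26% of all genes. None passed with DESeq2, against 3.28% of all genes, but some genes of the PIWI list had no DESeq2 adjusted p. After TMM scaling both siRNAs gave a higher value in 41 and a lower value in 22 of the 69, against 41.9% and 41.6% of all genes, which is also the background of the counts for each list. Under total-count scaling 33 were higher and 24 lower, against 36.3% and 46.7%. The median of the mean log2 fold change was 0.20, and 0.02 with the GC trend removed, against -0.002 over all genes tested. One gene was at least 2-fold from the control with both siRNAs, against 9.05% of all genes. It was the germline Argonaute relative PIWIL1 (edgeR adjusted p = 0.163). PIWIL1 had 19, 5 and 6 counts in the control, siRNA 1 and siRNA 2 libraries. The other 4 genes tested in the PIWI list stayed within 2-fold, and PIWIL3 had no count.

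Around the Microprocessor, 4 of 8 partner genes were higher and 4 lower with both siRNAs (under total-count scaling 3 and 4). NCBP1, a cap-binding subunit, had 3122, 4223 and 4002 counts in the control, siRNA 1 and siRNA 2 libraries, and SRRT (ARS2), which links the cap to microRNA processing, had 4640, 2652 and 3223. Among 4 transport genes XPO1, the general exporter, had 8431, 14523 and 13531 counts, and RAN, the GTPase that drives XPO5, had 6592, 4773 and 7800. RAN was thus below the control with siRNA 1 and, after scaling, above it with siRNA 2. The list median was 0.50, and 0.12 with the GC trend removed. None of the 12 genes passed edgeR's test.

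Of 8 Dicer partners and loading chaperones, 6 were higher and 1 was lower with both siRNAs (under total-count scaling 5 and 2), with a median of 0.36 (0.11 with the GC trend removed). PRKRA (PACT), a double-stranded RNA-binding partner of DICER1, had 977, 1880 and 1387 counts in the control, siRNA 1 and siRNA 2 libraries, and FKBP4, an HSP90 co-chaperone whose exons partly overlap another gene, had 6348, 5220 and 6203. Of 9 C3PO and Argonaute-associated genes, 4 were higher and 5 lower (under total-count scaling 3 and 5). FMR1, an RNA-binding protein, had 1193, 1800 and 1517 counts, and MOV10, a helicase found with Argonautes, had 1129, 617 and 773. None of the 17 genes passed edgeR's test.

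The GW182 scaffolds recruit the machinery that silences Argonaute targets. TNRC6A and TNRC6B were higher with both siRNAs, TNRC6B at 716, 986 and 930 counts in the control, siRNA 1 and siRNA 2 libraries. TNRC6C had 784, 698 and 225 counts, with log2 fold changes of -0.15 and -1.83 (edgeR adjusted p = 0.453). It was therefore low with siRNA 2, whereas AGO2 was low with siRNA 1. TNRC6C shares 12.9% of its exonic bases with other genes, so its counts are uncertain.

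Among 22 genes for deadenylation and decapping, the steps that follow Argonaute binding, 11 were higher and 8 lower with both siRNAs (under total-count scaling 8 and 8). The decapping enzyme DCP2 had 651, 1139 and 1389 counts in the control, siRNA 1 and siRNA 2 libraries, with log2 fold changes of 0.82 and 1.05 (edgeR adjusted p = 0.125), and 0.24 and 0.60 with the GC trend removed. WTIP, a LIM-domain protein of this step, had 313, 154 and 185 counts. In the list for tailing and decay of small RNAs, 8 of 10 tested genes were higher and 2 lower under either scaling. TENT2, a nucleotidyltransferase, had 457, 818 and 739 counts, and ZSWIM8, a factor in target-directed microRNA decay that partly overlaps another gene, had 893, 582 and 572. LIN28B, which blocks let-7 maturation, had 0 counts in every library, and LIN28A had 0, 3 and 2.

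**Figure D5:**
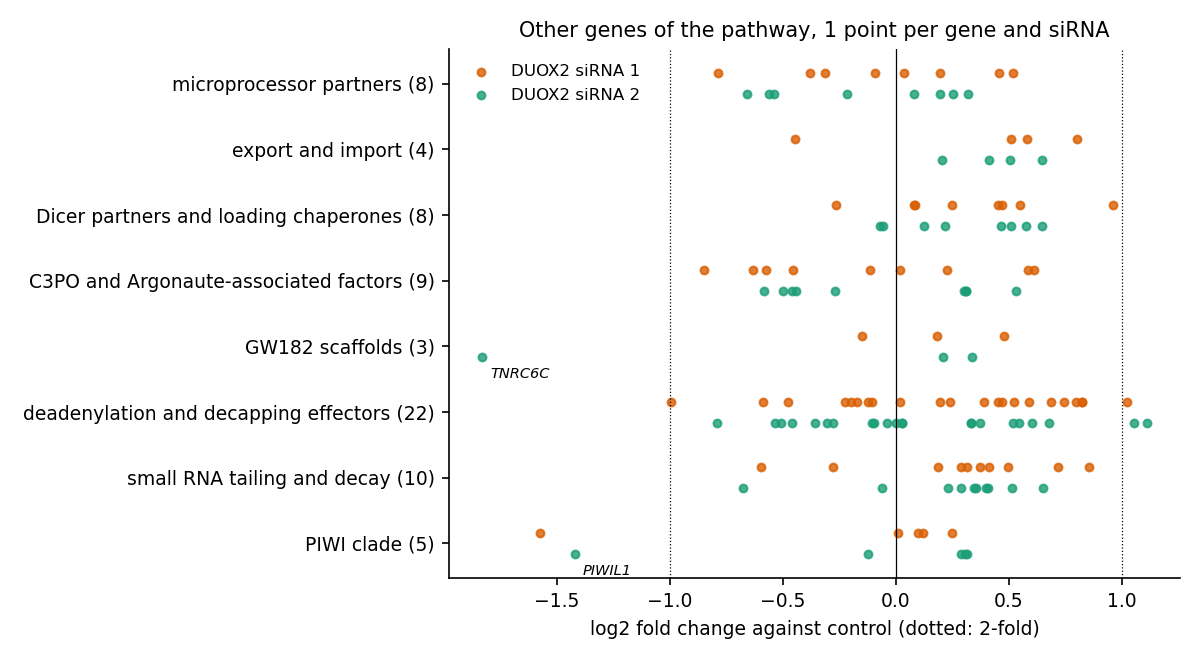
Log2 fold change against the control of the 69 other pathway genes tested, by list, with 1 point per gene for siRNA 1 (orange) and siRNA 2 (green), and dotted lines at 2-fold. PIWIL1 lies beyond the lower line with both siRNAs (-1.57 and -1.42), and TNRC6C lies at -0.15 with siRNA 1 and -1.83 with siRNA 2.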

How the data were processed

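RNA of HCT116 cells was sequenced in 3 libraries. The authors deposited 1 table with raw read counts and FPKM per gene. The submitters' processing notes list Bowtie 0.12.2, and as builds GRCh38 and mm8, without a role. Gene coordinates in the table equalled those of GENCODE 29 (GRCh38) for 97.5% of 58039 shared genes. How reads were counted (program, strand, multiple placements) was not given in the sources used here.

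Counts were tested with edgeR 4.0.16 in R 4.3.3 (TMM, filterByExpr at a minimum of 10 counts, quasi-likelihood F-test, Benjamini-Hochberg over all 17263 genes, threshold 0.05), with siRNA 1 and siRNA 2 as 2 samples against 1 control. SE is the absolute log2 fold change over the root of F. Fold changes per siRNA are differences of TMM-scaled log2 CPM with a prior count of 2 and have no test. CPM ratios use library totals, with exact 95% intervals for counting error only. PCR copies could not be told from separate molecules, so the intervals may be too narrow even for counting error. DESeq2 1.42.0, limma 3.58.1 on log2(FPKM + 0.1) and lowess removal of the GC trend (fraction 0.3) were alternatives. The sum of TSNAX with TSNAX-DISC1 and levels per kilobase of merged exons were added after seeing the data. The edgeR script was tested on simulated data.

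The members and lists were chosen with earlier results of these data known, among them that AGO2 and TSNAX differed among the libraries. The p-values of these genes are therefore not independent of that choice. Named genes are the members, genes overlapping them, list genes called or 2-fold with both siRNAs, and otherwise the highest and lowest of each list. TSN, TNRC6A, PIWIL3, LIN28A and LIN28B were named after their values were seen.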

Additional observations from a re-analysis of the deposited data

How the results depend on the processing

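The number of members past the test was 0 in edgeR and 1 with DESeq2 (TSNAX), and 0 under total-count scaling, without a filter, at 1 CPM in every library, with the GC trend removed, in protein-coding genes without exon overlap (2 members left), with limma and at a threshold of 0.10. Over all genes the edgeR count of 10 compared with 567 in DESeq2, 63 at a threshold of 0.10 and 0 in edgeR without a filter, at 1 CPM in every library, with the GC trend removed and in limma, where 3938, 4050, 1747 and 4010 genes were under 0.05 before adjustment. The number of members 2-fold from the control with both siRNAs was 1, and 0 under total-count scaling, with the GC trend removed and on the FPKM scale. Without overlapping genes it was also 0, but TSNAX was not among the 2 members left, so that setting could not count it. The number was 2 at 1.5-fold, and leaving out 1 siRNA library gave 1 to 2. Over all genes that count was 1562, against 2664 without a filter, 900 at 1 CPM in every library, 817 with the GC trend removed and 396 without overlapping genes.

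The median of the members' mean log2 fold change was 0.14. It was 0.04 under total-count scaling (0.0391) and on the FPKM scale (0.0386), and 0.13 with DESeq2 (0.135), without a filter (0.133) and at 1 CPM (0.135). It was 0.08 with the GC trend removed (0.0791) and 0.1507 to 0.1511 without 1 siRNA library. Without overlapping genes it was 0.28, over the 2 members left. Of 63 single-gene values with a test under the alternatives, 53 kept direction and call, 1 passed the test and 9 changed sign, none of them called. The 20 values without 1 siRNA library have no test and kept their direction. Under total-count scaling DROSHA stood at -0.0059, DGCR8 at -0.051 and XPO5 at -0.034, and in limma at -0.0057, -0.049 and -0.035. With the GC trend removed AGO3 stood at -0.016, DROSHA at -0.10 and TARBP2 at 0.44. The cause was not tested. AGO2 rests on siRNA 1, since its log2 fold change was -0.05 without that library and -1.50 without siRNA 2. No paired analysis was possible because the groups share 1 replicate number and the control has a single library.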

Other observations

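For AGO2 and TSNAX, the 3 protein-coding genes with a mean of at least 10 CPM and the nearest pair of log2 fold changes, by Euclidean distance over the 2 siRNAs, were listed among 9324 candidates. Nearest to AGO2 were PGAM5, a mitochondrial phosphatase, with 1463, 568 and 1492 counts in the control, siRNA 1 and siRNA 2 libraries, TNFSF10, the death ligand TRAIL, with 282, 107 and 299, and OSER1 with 1717, 619 and 1533. Their distances were 0.159 to 0.163, and 13 candidates lay within 0.25 of AGO2. Because they were chosen for nearness to AGO2, that these genes were low with siRNA 1 alone follows from the choice. Nearest to TSNAX were CCDC32 (123, 238 and 305 counts), RAPGEF5, an exchange factor for small GTPases (171, 329 and 442), and LGALS8, galectin-8 (1803, 4201 and 4407), with 25 candidates within 0.25. PGAM5, CCDC32 and LGALS8 share exonic bases with other genes (55, 1094 and 2968 bases), so their counts are uncertain. The likeness rests on 2 fold changes that share 1 control library, and it is a description of these 3 libraries.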
